A study of Rattus norvegicus with 4 samples.

Results

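The genes described here encode the transient receptor potential (TRP) channels, the polycystins, Piezo1, the chloride channels and chloride-channel-related families (CLC with its subunit barttin, CLCA, CLIC and anoctamin), the acid-sensing channels and the epithelial sodium channel. They were chosen by a gene symbol pattern that uses no values, among the named probes of a whole-genome rat array. Earlier results of these data were known when the choice was made. The choice took 70 probes for 53 genes, of 33849 gene probes and 12318 named genes in all. The symbol pattern also took in Trpc4ap, which encodes a protein that binds TRPC4 and is not a channel subunit. Of 77 genes of the GRCr8 RefSeq annotation that match the pattern, 24 had no probe named here and were not analysed, among them Mcoln3, Trpa1, Trpv4, Piezo2 and Cftr.

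Total RNA came from the rat crista ampullaris, the sensory ridge of each semicircular canal, in which hair cells and supporting cells detect head rotation. Laser microdissection took the superficial layer first, with hair cells of types I and II and the cytoplasm of supporting cells lying between them; it is called the hair layer here. A second pass took the bodies of the supporting cells down to the basal lamina, called the supporting layer. The 2 layers were each hybridised to 2 single-colour arrays, and strain, age and any treatment of the animals are not given in the sources used here. Cells were chosen by morphology, the hair cells by their stereociliary tuft, nerve calyx and outer nucleus, and no label says that the arrays of a layer stem from different animals, so p-values measure only how these samples vary, and that variation may be technical.

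TRP channels are tetrameric cation channels, most of them permeable to calcium, which open to lipids, calcium, temperature or ligands according to the family. CLC proteins are chloride channels of the cell membrane or chloride-proton exchangers of endosomes and lysosomes, and barttin is a subunit that some of them need in cells that secrete potassium into endolymph. Anoctamins are calcium-activated chloride channels or lipid scramblases, and CLIC proteins are largely soluble proteins, of which CLIC5 sits at the base of stereocilia. Epithelial sodium channels absorb sodium from endolymph, and the acid-sensing channels are their proton-gated relatives in neurons.

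Raw intensity had a median of 25.1 and 16.9 on the hair layer arrays and 12.1 and 11.9 on the supporting layer arrays, and 39.7% to 48.8% of gene probes were called above background per array by the scanner software. A detected probe is one flagged good or saturated. Of 14 tested hair cell marker genes 12 were higher in the hair layer, with Chrna9 at a change of -2.88 ± 0.10 (supporting minus hair layer, log2, with the limma standard error). Myo7a, Cdh23, Espn and Lhfpl5 among the 14 were detected in the hair layer alone. Among supporting cell markers 15 were tested, 6 being higher in each layer. Of these, Cldn9 was detected in the hair layer alone. Sox2 counts toward the hair layer by its brighter probe, and a second Sox2 probe was called toward the supporting layer (adjusted p = 0.00523 by limma). Endothelial and pericyte markers were higher in the supporting layer for 6 of 8 tested genes, neuronal markers for 4 of 6 and connective tissue markers for 3 of 6. Among all tested genes 28.3% were. In the same order, 1, 2 and 1 genes of these lists were higher in the hair layer. Among these lists, Rgs5 was detected in the supporting layer alone, and Nefl, Nefm and Fbn1 in the hair layer alone. Immune markers were higher in the hair layer for 3 of 5 tested genes and in the supporting layer for 2, and 37.2% of all tested genes were higher in the hair layer. The 3 immune genes higher in the hair layer, Cd68, Aif1 and C1qa, were detected there alone. Schwann cell markers split 2 and 2 of 6, and of these called genes Ncam1 was detected in the hair layer alone. A gene detected in 1 layer alone was tested through that layer, so its direction is no independent support. Of these 8 endothelial and pericyte genes 7 had a value on all 4 arrays, with a summed level of 499.7 and 568 in the hair layer and 1492 and 1499.9 in the supporting layer (Cldn5 had no usable spot on supporting layer replicate 2), and the part of these cells in the results was not tested. In bulk samples such as these, fewer cells of a type and less RNA per cell cannot be told apart.

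Most of these channel genes were near or below the detection limit. Of 53 genes, 22 were detected on at least 2 of the 4 arrays and were tested (41.5%), against 7760 of the 12318 named genes of the array (63.0%). A further 3 genes were detected on 1 array and 28 on none. On the hair layer arrays 22 of the genes were detected on each, and on the supporting layer arrays 19 on each. Among families with more than 3 genes, 4 of 5 acid-sensing channel genes and 4 of 5 TRPM genes were tested, against 2 of 8 in the TRPC group, 0 of 4 in the TRPV group and 0 of 4 in the CLCA group. A probe listed for both Trpv1 and Trpv4 and a probe listed for both Xndc1 and Trpc2 are not counted here. Each was detected on both hair layer arrays.

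**Figure D1:**
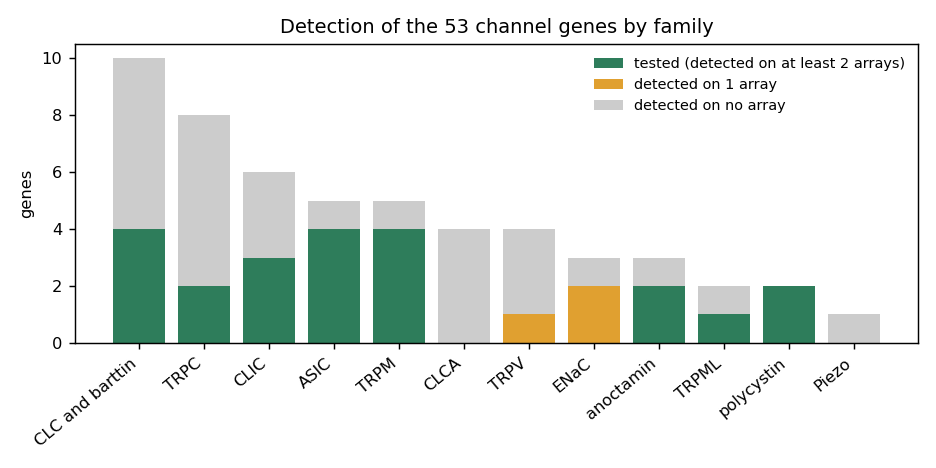
Stacked bars give the number of genes per family (vertical axis, genes) that were tested, that were detected on 1 array and that were detected on no array. In all, 22 of 53 genes were tested, and the CLCA, TRPV and epithelial sodium channel (ENaC) families and Piezo1 had none.

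Of the 22 tested genes, 7 were called higher in the hair layer and 8 higher in the supporting layer by limma at a Benjamini-Hochberg adjusted p under 0.05, and 7 were not called. Of all 7760 tested genes, 37.2% were called higher in the hair layer and 28.3% in the supporting layer, 65.5% in all, so these counts do not set the channel genes apart. Of all tested probes 67.4% were called, 33.9% toward the hair layer and 33.5% toward the supporting layer. The median change was 0.12 over the 22 genes and -0.10 over all tested genes. In 9 of the 22 genes both hair layer arrays lay above both supporting layer arrays, and in 10 the order was the opposite, while among all tested genes 47.3% had the first order, 38.8% the second and 86.2% either. Trpc1, Ano4 and Clcn2 passed the detection filter through the hair layer alone and no gene through the supporting layer alone, against 14.1% and 2.85% of all tested genes. Leaving out hair layer replicate 1 lowered the counts to 3 higher in the hair layer and 3 higher in the supporting layer, and leaving out hair layer replicate 2 to 4 and 4. Leaving out either supporting layer array lowered the second count to 5.

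The scaling of the arrays sets the direction of the small differences. Without any scaling between arrays, 10 of the 22 genes were called higher in the hair layer and 1, Asic4, higher in the supporting layer. The median change of all tested probes was then -0.67, against 0.01 after quantile normalization, and 21.1% of all calls were toward the supporting layer, against 49.7%. Changes below are relative to the quantile-normalized arrays.

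**Figure D2:**
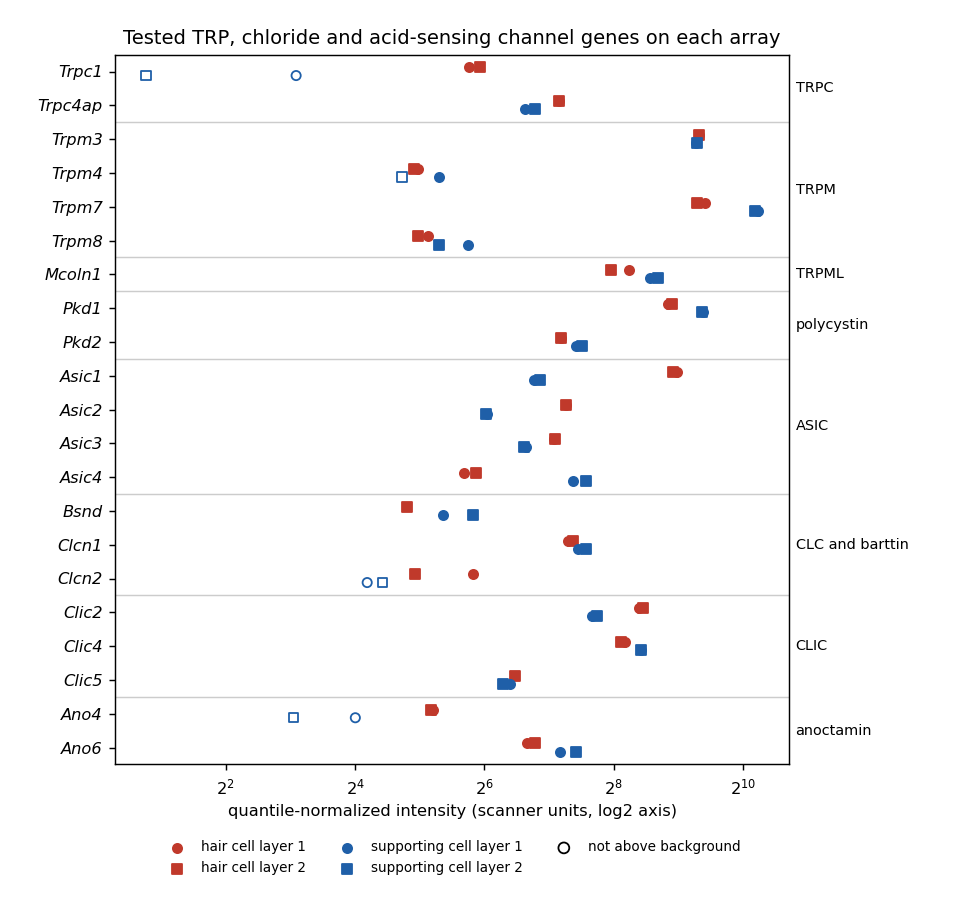
Points give the quantile-normalized intensity (horizontal log2 axis, scanner units) of the tested genes named here on the hair layer arrays (red) and the supporting layer arrays (blue), open where the spot was not above background. Asic1 lies at 505 and 486 in the hair layer and at 109 and 117 in the supporting layer, and Asic4 has the opposite order.

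The acid-sensing channels held the largest differences measured on all 4 arrays. Asic1, Asic2 and Asic3 were higher in the hair layer and Asic4 was higher in the supporting layer. The fifth gene, Asic5, whose product is a bile acid-sensitive relative, was detected on no array. The directions of the 4 called genes held under each of the 4 scalings tried. Of these, median scaling and the scanner software's values both rest on array medians and are not independent.

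Asic1 encodes a main proton-gated subunit of neurons. Its brighter probe, which the deposited description ties to the 1b form, read 505 and 486 in the hair layer and 109 and 117 in the supporting layer. Both hair layer arrays were far above both others, and the change was -2.13 ± 0.08 (2 arrays per layer, adjusted p = 0.00135 by limma). A second Asic1 probe, described only as an acid-gated ion channel, read 53.1 and 20.2 in the hair layer and 25.4 and 42.9 in the supporting layer. Its layers overlapped, it was detected on 1 array of each layer, and its change of 0.01 ± 0.62 was not called. With the mean over both probes the change of Asic1 was -1.06 and was not called (adjusted p = 0.0625 by limma).

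Asic2 encodes a subunit that joins ASIC1 in mixed channels. It read 153 on both hair layer arrays and 66.2 and 65.4 on the supporting layer arrays. The replicates of a layer were nearly equal and the layers well apart, with a change of -1.22 ± 0.07 (adjusted p = 0.00192 by limma). It had 2 further probes, neither detected on any array. With the scanner software's own values the change was -1.06 and the adjusted p was 0.0513.

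Asic3, the subunit best known from sensory neurons, read 135 and 137 in the hair layer and 100.2 and 98.3 in the supporting layer. The layers did not overlap, and the change of -0.45 ± 0.07 was called (adjusted p = 0.0120 by limma). Leaving out either hair layer array ended that call (adjusted p = 0.0593 without replicate 1 and 0.0618 without replicate 2), as did median scaling (adjusted p = 0.392).

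Asic4 encodes a subunit that does not form a proton-gated channel by itself. It read 51.2 and 58.5 in the hair layer and 166 and 191 in the supporting layer. Here both supporting layer arrays were the high ones, and the change was 1.70 ± 0.13 (adjusted p = 0.00290 by limma). Its other probe was detected on no array. Of the 15 called genes it alone was called in the same direction under all 14 alternatives run for it.

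The markers of neurons moved between the layers as well. Of 6 tested neuronal genes (of 11 listed), Gria2, Kcna1, Gap43 and Uchl1 were higher in the supporting layer, and Nefl and Nefm were higher in the hair layer, where they were detected and the supporting layer arrays did not detect them. The summed level of the 6 genes was 316 and 352 in the hair layer and 993 and 975 in the supporting layer. Gria2 alone read 33.6 and 42.1 in the hair layer and 575 and 574 in the supporting layer, so the sum mostly follows that gene. Nefh was detected on no array. The part of nerve endings in the values of the acid-sensing channels was not tested.

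**Figure D3:**
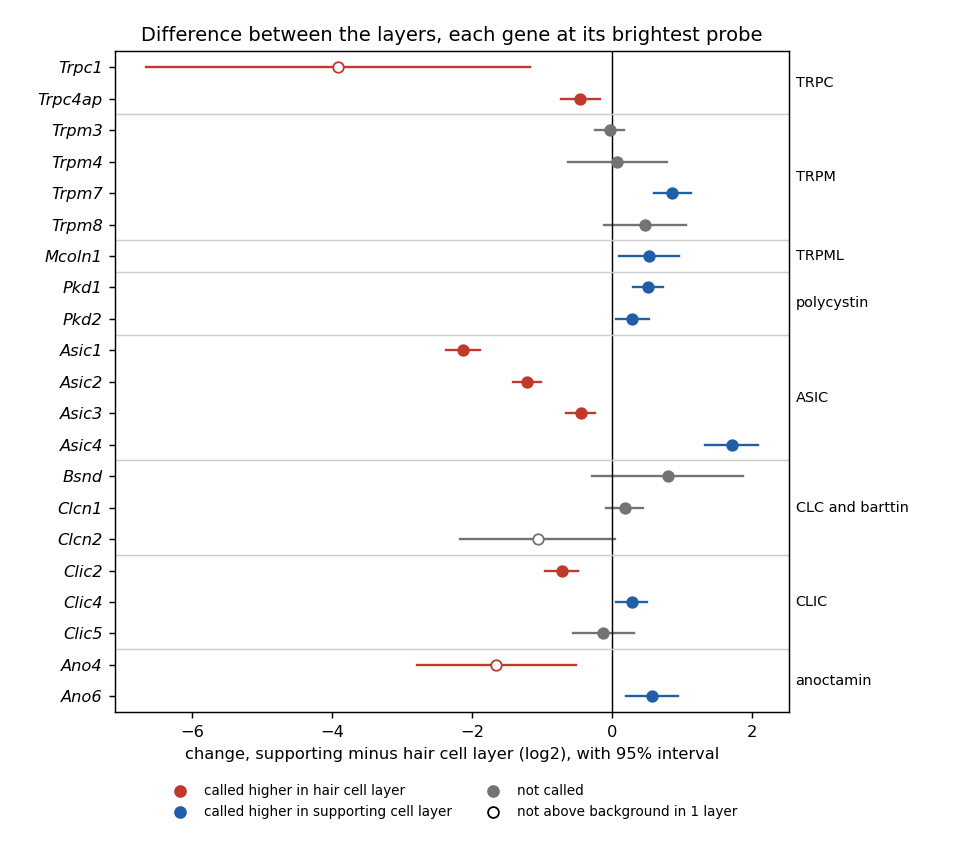
Points give the change of the tested genes named here (horizontal axis, supporting minus hair layer, log2) with its 95% interval from limma, coloured by call and open where the gene was not above background in a layer, for which the point is no measure of size. Asic1 at -2.13 and Asic4 at 1.70 lie at opposite ends of the genes detected in both layers.

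The upstream sequence of 3 called genes is shown because Asic1, at its brighter probe, and Asic3 moved together and Trpm7 moved the other way. The windows were taken by gene symbol and were not matched to the transcript form that a probe reads. Each line holds the 250 bases before the RefSeq transcript start in the GRCr8 build, 5′ to 3′ on the gene's strand, at chr7:132678457-132678706 (plus strand) for Asic1, chr4:11657368-11657617 (minus strand) for Asic3 and chr3:134588114-134588363 (minus strand) for Trpm7. Capitals mark matches to the E-box CANNTG, the core bound by basic helix-loop-helix factors, and to the GC box GGGCGG on either strand.
Asic1: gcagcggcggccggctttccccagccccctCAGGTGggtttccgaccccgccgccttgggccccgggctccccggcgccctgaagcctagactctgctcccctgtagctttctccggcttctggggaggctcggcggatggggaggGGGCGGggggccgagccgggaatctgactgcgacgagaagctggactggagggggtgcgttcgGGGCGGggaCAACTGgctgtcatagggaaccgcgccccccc
Asic3: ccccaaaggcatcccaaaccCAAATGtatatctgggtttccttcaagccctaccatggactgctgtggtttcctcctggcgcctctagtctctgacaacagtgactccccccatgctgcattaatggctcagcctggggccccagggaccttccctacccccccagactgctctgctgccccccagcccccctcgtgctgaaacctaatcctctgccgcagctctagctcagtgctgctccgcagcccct
Trpm7: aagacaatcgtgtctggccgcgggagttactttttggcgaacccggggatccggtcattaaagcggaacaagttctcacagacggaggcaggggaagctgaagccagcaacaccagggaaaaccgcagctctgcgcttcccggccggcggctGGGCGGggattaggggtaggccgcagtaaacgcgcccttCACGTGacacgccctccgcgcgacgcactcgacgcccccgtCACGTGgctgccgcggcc
Asic1 held 2 E-boxes and 2 GC boxes, Asic3 held 1 E-box and 0 GC boxes, and Trpm7 held 2 E-boxes and 1 GC box, with no match overlapping another. Of 33469 RefSeq windows of the same length, 65.5% held an E-box and 30.5% a GC box. CpG pairs numbered 22 in the Asic1 window, 4 in the Asic3 window and 29 in the Trpm7 window, against a median of 5.

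Among TRP channels, Trpm7 had the largest change measured in both layers. It encodes a channel fused to a kinase, permeable to magnesium, calcium and zinc. It read 685 and 624 in the hair layer and 1207 and 1164 in the supporting layer. The layers did not overlap, and the change was 0.86 ± 0.09 (adjusted p = 0.00516 by limma). With the scanner software's own values the call was lost (adjusted p = 0.0783), and without scaling between arrays the change was 0.15.

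Trpm3, a channel opened by heat and by the neurosteroid pregnenolone sulfate, differed between its 2 probes. The brighter probe read 639 and 642 in the hair layer and 622 and 629 in the supporting layer, a change of -0.04 ± 0.07 with a 95% interval from -0.24 to 0.17. The other probe read 128 and 158 in the hair layer and was not above background in the supporting layer, at 15.0 and 2.56. The hair layer exceeded it by at least 5.18-fold (adjusted p = 0.0282 by limma). Such a lower limit sets the brighter layer against the lowest signal detected on each array of the other layer. Where the probe's own signal there is higher, that signal is used. An adjusted p given beside a lower limit tests the fitted change, which uses the signals not above background, and not the limit itself. The detection limit varies between spots, and Piezo1 was not above background at 31.1 on supporting layer replicate 2. Such limits are therefore approximate, and small ones such as those of Ano4 and the weaker Trpc4ap probe are uncertain. A probe with a lower limit passed the detection filter through its brighter layer alone, so its direction is no independent support. Averaged over the probes Trpm3 was called higher in the hair layer (adjusted p = 0.0278), so the call rests on which probe is read.

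Trpm4 and Trpm8 lay near the detection limit. Trpm4, a calcium-activated channel for sodium and potassium, read 31.4 and 29.9965 in the hair layer and 39.3 and 26.5 in the supporting layer, the last not above background. Its layers overlapped, and its change of 0.07 had a 95% interval from -0.63 to 0.78. Trpm8, the cold and menthol receptor, read 35.0 and 31.4 in the hair layer and 53.6 and 39.4 in the supporting layer. Its layers did not overlap, but the change of 0.47 ± 0.19 was not called (adjusted p = 0.111 by limma, 0.0334 without supporting layer replicate 2). Without scaling between arrays the change of Trpm8 was -0.23. Trpm1, known from melanocytes and the retina, was detected on no array.

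In the TRPC group, Trpc1 encodes a subunit of channels that open downstream of phospholipase C. It read 54.2 and 61.0 in the hair layer and was not above background in the supporting layer, at 8.51 and 1.70. It was called higher in the hair layer by at least 2.10-fold (adjusted p = 0.0312 by limma). The call was lost without hair layer replicate 1 (adjusted p = 0.142) or replicate 2 (adjusted p = 0.144). Its second probe was detected on no array. Trpc4ap, which also serves as an adaptor of a CUL4 ubiquitin ligase, read 143 and 142 in the hair layer and 98.6 and 109.8 in the supporting layer, a change of -0.46 ± 0.09 (adjusted p = 0.0220 by limma). The names of both Trpc4ap probes rest on the platform annotation alone. The weaker probe went the same way, by at least 1.28-fold, and was not above background in the supporting layer. It passed the detection filter through the hair layer alone, so it is no independent support. Without hair layer replicate 1 or 2 or supporting layer replicate 1 the call of Trpc4ap was lost, with adjusted p up to 0.102. Trpc2, Trpc4, Trpc5, Trpc6 and Trpc7 were among the genes detected on no array.

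Mcoln1, Pkd1 and Pkd2 were called higher in the supporting layer, by small changes that turn negative without scaling between arrays. Mcoln1, the TRPML1 cation channel of lysosomes, read 303 and 249 in the hair layer and 376 and 414 in the supporting layer. Its layers did not overlap, and its change was 0.52 ± 0.14 (adjusted p = 0.0436 by limma). Pkd1, which encodes the large receptor-like polycystin-1, read 459 and 477 in the hair layer and 667 and 661 in the supporting layer, a change of 0.50 ± 0.07 (adjusted p = 0.0103). Pkd2 encodes the channel subunit polycystin-2, a partner of polycystin-1 at primary cilia. Its brighter probe read 145 on both hair layer arrays and 170 and 183 on the supporting layer arrays, a change of 0.28 ± 0.08 (adjusted p = 0.0458), and its other probe changed by 0.79 ± 0.19 in the same direction (adjusted p = 0.0349). The name of the brighter Pkd2 probe rests on the platform annotation alone. These are differences of less than 1.5-fold at the brighter probes. The calls of Mcoln1 and of Pkd2 were lost when any of the 4 arrays was left out, with adjusted p up to 0.129 and 0.152, and that of Pkd1 without hair layer replicate 1 (adjusted p = 0.0585). Without scaling between arrays the changes of Mcoln1, Pkd1 and Pkd2 were -0.18, -0.22 and -0.38.

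In the CLC family, the subunit gene of barttin, Bsnd, had no usable spot on hair layer replicate 1, which was flagged as contaminated, so its fit rests on 3 arrays. It read 28.0 on hair layer replicate 2 and 41.2 and 57.0 on the supporting layer arrays, and its change of 0.79 ± 0.28 was not called (adjusted p = 0.119, 95% interval from -0.29 to 1.87).

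Barttin is known in the ear from the dark cells beside the crista. Of 9 listed dark and transitional cell markers 5 were tested, all detected on all 4 arrays. Slc12a2 was higher in the supporting layer and Atp1b1, Atp1b2 and Kcnj16 were higher in the hair layer, while Kcnj10 was not called. The summed level of the 5 was 8103 and 8424 in the hair layer and 5280 and 5464 in the supporting layer. Atp1b1 alone read 6163 and 6507 in the hair layer and 3332 and 3443 in the supporting layer, so the sum mostly follows that gene. A second Atp1b2 probe had the opposite sign and was called (adjusted p = 0.0118 by limma). The potassium channel genes that define dark cells, Kcnq1 and Kcne1, were detected on at most 1 array and on none, and Slc26a4 on none. The part of dark cells in the Bsnd values was not tested.

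Clcn1, the chloride channel of skeletal muscle, read 158 and 165 in the hair layer and 174 and 191 in the supporting layer. Its change of 0.17 ± 0.09 was not called (95% interval from -0.09 to 0.44), and without scaling it was -0.50. Clcn2, a widely expressed channel opened by hyperpolarization, read 56.4 and 30.3 in the hair layer and was not above background in the supporting layer, at 18.2 and 21.5. The lower limit of its difference was 1.51-fold toward the hair layer, and it was not called (adjusted p = 0.0754 by limma, 0.0286 without hair layer replicate 2). The exchanger genes Clcn3, Clcn4, Clcn5, Clcn6 and Clcn7 were detected on no array.

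In the CLIC family, 3 of 6 genes were tested. Clic2 read 336 and 352 in the hair layer and 204 and 213 in the supporting layer, a change of -0.72 ± 0.08 (adjusted p = 0.00553 by limma). It kept its direction under every scaling but was not called with median scaling (adjusted p = 0.108), with the scanner software's values (0.312) or with no filter on dim probes (0.0577). Clic4, a soluble protein that moves between cytoplasm, membranes and nucleus, read 291 and 277 in the hair layer and 344 on both supporting layer arrays. This change of 0.28 ± 0.07 (adjusted p = 0.0413) was lost without any of the 4 arrays, with adjusted p up to 0.137, and was -0.43 without scaling. Clic5, the CLIC protein of the stereocilia base, lacked hair layer replicate 1, flagged as contaminated. It read 88.6 on hair layer replicate 2 and 84.2 and 78.3 on the supporting layer arrays, and its change was -0.13 ± 0.12 (95% interval from -0.57 to 0.31). That interval contains the change measured for Clic4. Clic1, Clic3 and Clic6 were detected on no array.

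Of the anoctamins, Ano6, a calcium-activated lipid scramblase and ion channel, read 101.5 and 110.2 in the hair layer and 144 and 170 in the supporting layer. The change of 0.57 ± 0.12 was called (adjusted p = 0.0276 by limma), and 2 further probes were detected on no array. Ano4 read 36.9 and 36.0 in the hair layer and was not above background in the supporting layer, at 16.1 and 8.30. The hair layer was higher by at least 1.33-fold (adjusted p = 0.0298). Leaving out hair layer replicate 1 or 2 ended both calls, with adjusted p of 0.126 and 0.0913 for Ano6 and 0.109 and 0.136 for Ano4, and leaving out supporting layer replicate 2 ended that of Ano6 (adjusted p = 0.0597). Without scaling between arrays the change of Ano6 was -0.10. Ano1, the calcium-activated chloride channel of many epithelia, was detected on no array.

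**Figure D4:**
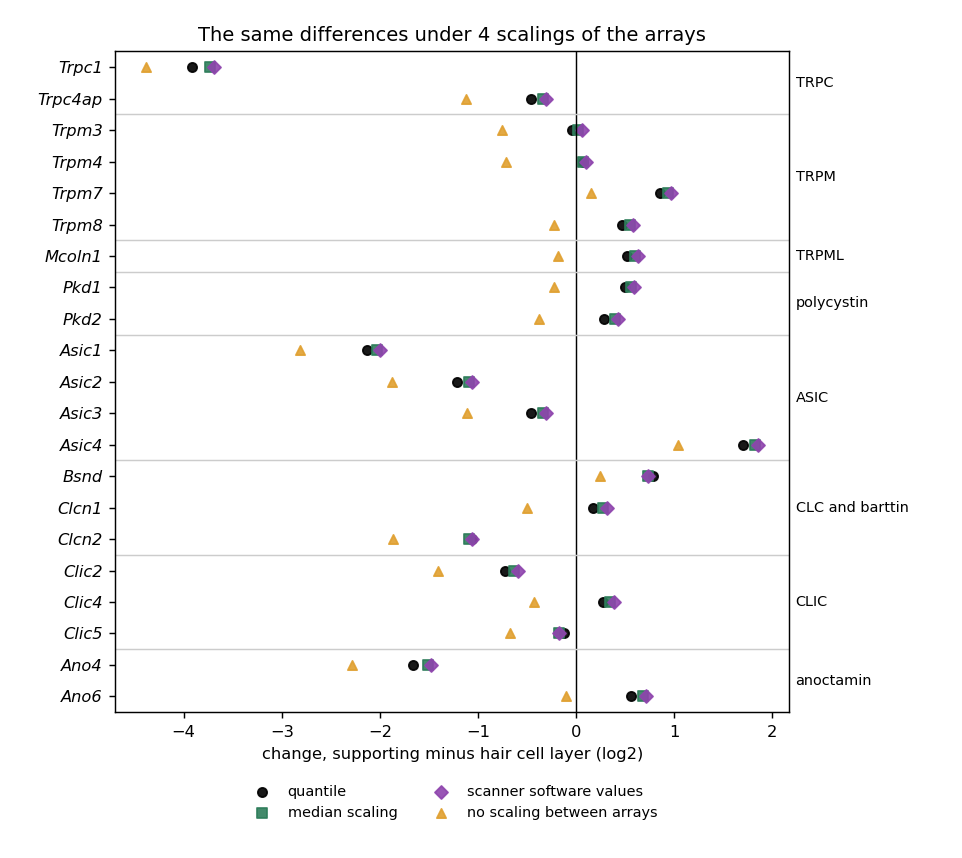
Points give the change of the tested genes named here (horizontal axis, supporting minus hair layer, log2) under quantile normalization, median scaling, the scanner software's values and no scaling between arrays. The first 3 lie close together, and the unscaled values lie toward the hair layer, so that Ano6, Clcn1, Clic4, Mcoln1, Pkd1, Pkd2, Trpm4 and Trpm8 change sign while the 4 acid-sensing channel genes keep theirs.

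The epithelial sodium channel was scarcely detected. Scnn1a, the alpha subunit, was detected on hair layer replicate 1 alone, and its values of 18.7 and 19.2 in the hair layer and 9.77 and 27.5 in the supporting layer overlapped. Scnn1g, the gamma subunit, was detected on supporting layer replicate 2 alone, at 42.1, against 5.26, 2.65 and 4.97 on the other arrays. Scnn1b, the beta subunit, was detected on no array. Trpv6, an epithelial calcium channel, was detected on hair layer replicate 1 alone, at 47.1, against 8.07, 8.61 and 10.5 elsewhere. Replicates of a layer disagreed for Scnn1g and Trpv6. The sodium channel genes and Trpv6 were detected on too few arrays to be tested for a difference between the layers.

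The 28 genes detected on no array had 30 probes, with normalized intensities from -6.55 to 31.1 and a median of 5.38. Beside those already named, they include the calcium-activated chloride channel regulators Clca2, Clca4, Clca4l and Clca5, the capsaicin receptor Trpv1, its relatives Trpv2 and Trpv5, Mcoln2 and the mechanically gated channel Piezo1. The highest value was that of Piezo1, which read 12.4 and 3.0046 in the hair layer and 22.0 and 31.1 in the supporting layer. A signal below background does not show that a gene is silent, since the lowest detected signal was 13.9 and 18.5 on the hair layer arrays and 26.6 and 28.3 on the supporting layer arrays.

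Partner and regulator genes of these channels were read from 5 lists. Of 43 tested genes 28 were called, where 65.5% of all tested genes were. The median change was 0.14 in the calcium entry list, -0.75 in the endolysosomal list, -0.24 among other anion channels, -0.33 among regulators and -0.07 among scaffolds, against -0.10 over all tested genes. In the list of calcium entry through STIM, ORAI and phospholipase C, 4 of 9 tested genes were higher in the hair layer and 4 in the supporting layer. The scaffold Homer1 (-2.35 ± 0.18), the calcium sensor Stim1 (-1.87 ± 0.13, not above background on supporting layer replicate 1) and the pore gene Orai2 (at least 1.91-fold) were higher in the hair layer. The phospholipases Plcb3 (1.71 ± 0.07) and Plcg1 (0.70 ± 0.08) and the pore gene Orai3 (0.58 ± 0.10) were higher in the supporting layer. A second probe of Homer1 had the opposite sign and was called (adjusted p = 0.0160 by limma). Stim2, also counted as higher in the hair layer (-0.25 ± 0.07), had a second probe called toward the supporting layer (adjusted p = 0.00153 by limma). The count for the hair layer therefore depends on which probe is read.

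Among endolysosomal partners, 3 of 6 tested genes were higher in the hair layer, with the lysosomal potassium channel Tmem175 (-1.38 ± 0.09) and the membrane protein Lamp1 (-1.25 ± 0.09). Lamp2 was the other, and its hair layer signals of 21.9 and 22.1 lay under the lowest detected on the supporting layer arrays, so no fold is given. The 2 higher in the supporting layer were the endolysosomal channel gene Tpcn1 (0.94 ± 0.10) and the lipid phosphatase Fig4 (0.44 ± 0.09).

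Of 10 other anion channel genes tested, 4 were higher in the hair layer and 2 in the supporting layer. Lrrc8b, a subunit of the volume-regulated anion channel, read 264 and 267 in the hair layer and was not above background in the supporting layer, so it was at least 9.66-fold higher (adjusted p = 0.0105 by limma). The tweety-family genes Ttyh2 (at least 2.55-fold) and Ttyh3 (-1.21 ± 0.08) were also higher in the hair layer. The bestrophin gene Best2 was at least 3.16-fold higher in the supporting layer, and Ttyh1 changed by 0.30 ± 0.08.

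Regulators of the sodium channel and of chloride transport were tested for 12 genes, of which 4 were higher in the hair layer and 2 in the supporting layer. The mineralocorticoid receptor gene Nr3c2 (-1.45 ± 0.10), the ubiquitin ligase gene Nedd4l (-0.79 ± 0.09), which removes sodium channels from the membrane, and the protease gene Furin (-0.69 ± 0.12), which cleaves them, were higher in the hair layer. Hsd11b1, which regenerates active glucocorticoid, read 77.2 and 83.2 in the hair layer and 907 and 840 in the supporting layer, the largest change of these lists toward the supporting layer (3.45 ± 0.09, adjusted p = 0.00115 by limma). The kinase gene Wnk1 changed by 0.52 ± 0.10. Among scaffolds and partners, the ligase gene Cul4a (-1.36 ± 0.11) and Nherf2 (-0.56 ± 0.14) were higher in the hair layer and the membrane-cytoskeleton linker Ezr (0.46 ± 0.07) in the supporting layer, of 6 tested. Leaving out hair layer replicate 1 or 2 lowered the 28 calls of the 5 lists to 14 and 17.

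**Figure D5:**
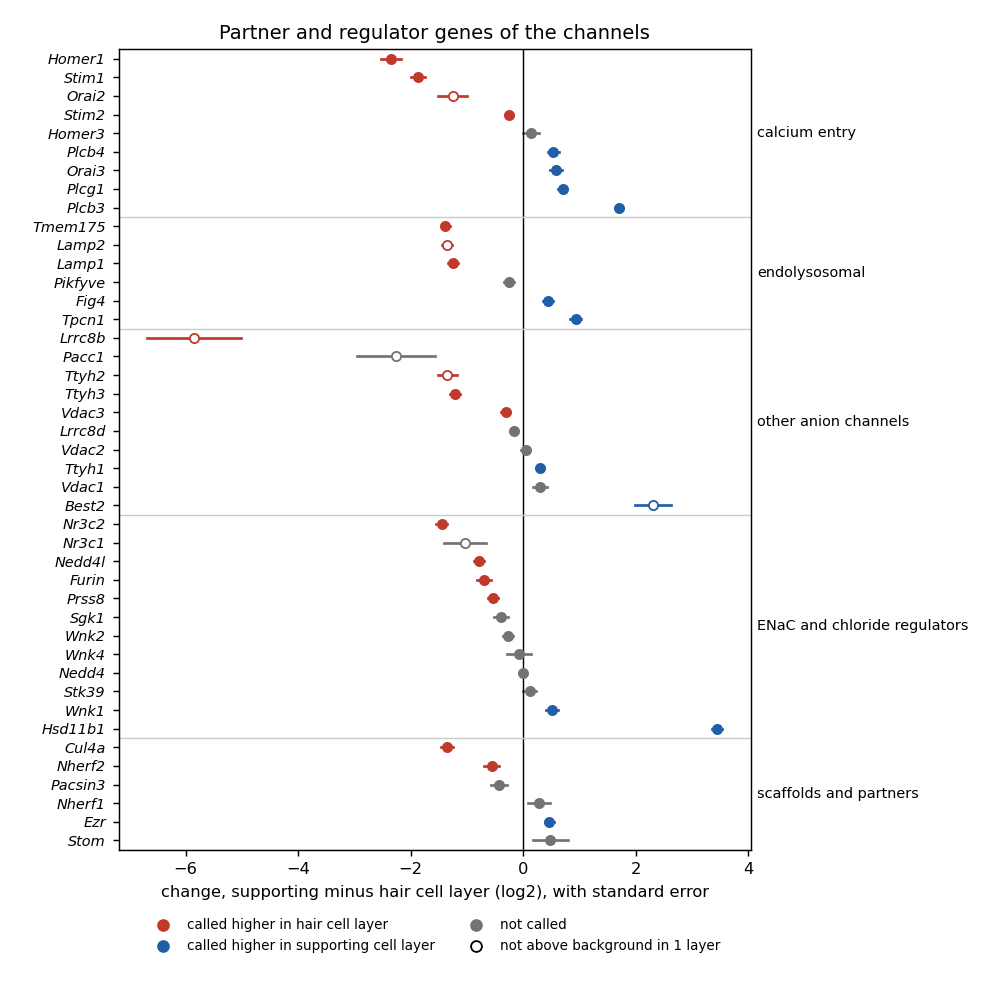
Points give the change of each tested partner gene (horizontal axis, supporting minus hair layer, log2) with its limma standard error, by list, coloured by call and open where the gene was not above background in a layer, for which the point is no measure of size. Hsd11b1 lies at 3.45, and Homer1 at -2.35.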

How the data were processed

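The 4 arrays were scanned and quantified with CodeLink Expression Analysis 4.0.0.23520, per the file headers. The deposited raw intensity is corrected for local background, and the deposited normalized intensity is the raw value over the array's median. Per the labels' protocols, poly(A) RNA went through linear amplification to biotin-carrying cRNA, which can distort levels of rare transcripts. In the deposited series table values of supporting layer replicate 2 sit on the wrong rows, so 1 column was not used there. The other columns paired 35125 rows with the platform annotation (values equal within 1e-06). Names were updated to GRCr8 RefSeq, and 39 probes in short stretches where the platform rows sat off the scanner rows, 165 of several genes, 2 with conflicting names and 16742 without a name were left unnamed. Of 65 member probes named by the platform 54 had the scanner file's own accession. The other 11 had another, and 10 of these lay within 4 rows of a probe whose own accession matched, so an offset cannot be fully checked for them.

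Control spots and spots flagged contaminated, irregular or failed were left out (69 to 637 gene probes per array). Raw intensities were quantile-normalized, with values under 0.1 of the normalized median set to that floor, and log2-transformed in R 4.3.3. The 16483 probes detected on at least 2 of 4 arrays were fitted with limma 3.58.1 (two-sided, eBayes without trend or block) and adjusted over these probes by Benjamini-Hochberg, with a threshold of 0.05. A gene was read at its brightest tested probe by mean over the arrays. The script was tested on simulated data. The number of arrays limits precision.

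Members and lists were chosen with earlier results of these data known. Named were called members and well-known inner ear members, and the largest called partner genes, up to 3 per direction and list. Stim2 was named for its second probe. Alternatives covered scaling, floor, filter, variance model, replicate block, probe choice and each array left out. Values of some members are not reported here, though the counts include them.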

Additional observations from a re-analysis of the deposited data

How the results depend on the processing

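Of the 15 called channel genes, 1 kept its call and direction under all alternatives and 14 lost the call under at least 1. The main counts were 7 channel genes higher in the hair layer, 8 higher in the supporting layer, 28 called partner genes and 11112 called probes. Median scaling gave 3 higher in the supporting layer and 18 partner genes. The scanner software's own values gave 3, 2, 16 and 6871 in the same order. In that fit all channel genes with a value on each of the 4 arrays had the same standard error of 0.46. Its lost calls therefore depend on that variance estimate as well as on the scaling. Under median scaling the standard error was 0.32 for both Asic3 and Clic2, against 0.07 and 0.08 in the main fit. Calls lost with median scaling have the same limit. With no filter on dim probes the counts were 2, 3, 15 and 6654. Without scaling between arrays, an alternative added after the data were seen, 1 was higher in the supporting layer, and 6 genes that were called in either fit reversed: Ano6 (-0.10), Clcn1 (-0.50), Clic4 (-0.43), Mcoln1 (-0.18), Pkd1 (-0.22) and Pkd2 (-0.38). Trpm4 (-0.71) and Trpm8 (-0.23) also changed sign, called in neither. Leaving out 1 array gave 3 to 7, 3 to 5, 14 to 25 and 7228 to 10009. The fit with the replicate number as a block gave 4 and 5 channel genes. The numbers were not taken to pair the arrays, since same-numbered deviations correlated at -0.03 and the labels name nothing shared. Hair layer replicate 1 was the brightest array and had the most spots left out, and the cause of these shifts was not tested. Values under about 28 on the supporting layer arrays cannot be told from background, and some spots above that were not detected either.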

Other observations

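The array also holds 2 probes whose annotation lists a channel gene together with another gene, so that neither was counted for a gene. Both passed the detection filter through the hair layer alone. The probe listed for both Trpv1 and Trpv4 read 106 and 102 in the hair layer and was not above background in the supporting layer, at 5.48 and 8.67, which is at least 3.78-fold higher in the hair layer (adjusted p = 0.00252 by limma). The deposited description of this probe names the Trpv4 transcript, and the 2 probes of Trpv1 alone were detected on no array. The probe listed for Xndc1 and Trpc2 read 140 and 112 in the hair layer and 7.33 and 13.7, not above background, in the supporting layer, at least 4.55-fold higher in the hair layer (adjusted p = 0.00529 by limma). The probe of Trpc2 alone was detected on no array.

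Of the channel genes, 14 had several probes and 4 had more than 1 tested. In Pkd2 and Trpc4ap the tested probes went the same way, and in Asic1 and Trpm3 they differed in their calls. The weaker probes of Trpc4ap and Trpm3 passed the detection filter through the hair layer alone. Their direction therefore neither backs nor counters the brighter probe.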
